A study of Mus musculus with 6 samples.

Results

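The genes described here are 9 transcription regulators of the red cell and platelet lineages, Gata1, Gata2, Zfpm1, Klf1, Tal1, Lyl1, Lmo2, Gfi1b and Nfe2, together with Epor, the receptor for erythropoietin. They were chosen by name, and every probe set carrying one of these symbols was taken. This gave 12 probe sets for the 10 genes, of 45101 probe sets and 18194 genes with a single symbol. Gata2 and Zfpm1 had 2 probe sets each and the other 8 genes had 1. Where a gene had 2, the one with the higher mean log2 intensity stood for it.

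The cells were lineage-negative, cKit-positive, Sca1-positive bone marrow cells (LSK cells), the fraction that holds blood stem cells and early multipotent progenitors. All came from 6-week-old mice of genotype Hes1 GFP/WT, so the GFP-negative cells carried the reporter allele too, and no mouse without it was measured here. RNA from GFP-positive and from GFP-negative cells was hybridised to 3 arrays each. Replicate 1 of each group came from a female, and replicates 2 and 3 came from males. GFP is expressed from the locus of Hes1, which encodes a repressor induced by Notch signalling, and the question is how LSK cells with the signal compare with LSK cells lacking it. By sex, replicate 1 came from another animal than replicates 2 and 3, but the labels do not say that replicates 2 and 3 were separate animals. The p-values thus reflect only how far these arrays differ among themselves, and part of that spread may be technical.

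GATA factors bind DNA through zinc fingers. In blood progenitors they act in a complex with TAL1 or LYL1, which are basic helix-loop-helix factors, and with LMO2, which bridges them. GATA2 serves stem and early progenitor cells, while GATA1 with its cofactor FOG1, the product of Zfpm1, drives red cell and megakaryocyte genes and replaces GATA2 as these lineages form. KLF1 then activates red cell genes, NFE2 serves platelet formation, GFI1B represses alternative programmes, and the erythropoietin receptor sustains red cell precursors.

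The arrays correlated pairwise at 0.92 to 0.95 over all probe sets, and their median intensities lay between 74.0 and 78.5. Xist lay at 12.50 to 12.72 (log2 intensity) in the female arrays and at 5.06 to 5.59 in the male arrays, and 3 Y-linked genes lay at 6.53 to 10.50 in males and at 3.42 to 4.69 in females, which fits the sex given for each array. The values of Xist in males serve below as a guide to background. Hes1 itself had a mean log2 intensity of 6.89 ± 0.18 (SD, n = 3) in GFP-negative arrays and 7.43 ± 0.38 in GFP-positive arrays. Its groups overlapped, as GFP-positive replicate 2 (7.09) lay just below GFP-negative replicate 3 (7.10). The log2 fold change of Hes1 was 0.54 ± 0.24 (SE, limma adjusted p = 0.78). The list of sorting markers held 11 genes, of which 6 were measured, and Ly6a, the gene of Sca1, was not among the 6. Kit lay at 10.47 to 10.72 in GFP-negative arrays and at 9.69 to 10.51 in GFP-positive ones. Cd34, a surface sialomucin of early progenitors, lay at 12.28 to 12.43 against 11.48 to 11.86, and the myeloid marker Itgam at 5.92 to 7.65 against 5.21 to 6.65. Across this list, 1 of 6 measured genes had a positive fold change, against 51.3% of all genes, with a median of -0.35. Of the 6, only Kit encodes a marker named in the sort given above, so the median does not describe the gate as such. Ptprc, the pan-leukocyte antigen, was at a log2 fold change of -0.28 ± 0.16 (SE).

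Klf1 and Gata1 stood higher in every GFP-positive array than in any GFP-negative array, by about 8.0-fold and 3.03-fold on average, and Zfpm1 and Epor were separated in the same way by smaller amounts. Besides Gata1, the complex described above has 4 genes among the 10. Of these, Gata2, Lyl1 and Lmo2 had log2 fold changes between -0.21 and 0.13. Tal1 was at 0.63, and the groups of all 4 overlapped. None of the 10 genes passed the test. By limma, 0 of them had an adjusted p under 0.05, where 0 of 18194 genes (0.00%) did, and the smallest adjusted p among the 10 was 0.254. At an unadjusted p under 0.05, 4 of the 10 were higher and 0 lower, against 3.33% of all genes higher and 3.38% lower. The groups did not overlap, with GFP-positive above, in 4 of the 10 genes against 5.89% of all genes, and GFP-positive below in 0 against 5.51%. A positive fold change was found in 7 of the 10 genes, against 51.3% of all genes. The median log2 fold change of the 10 was 0.71, against 0.0077 over all genes.

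**Figure D1:**
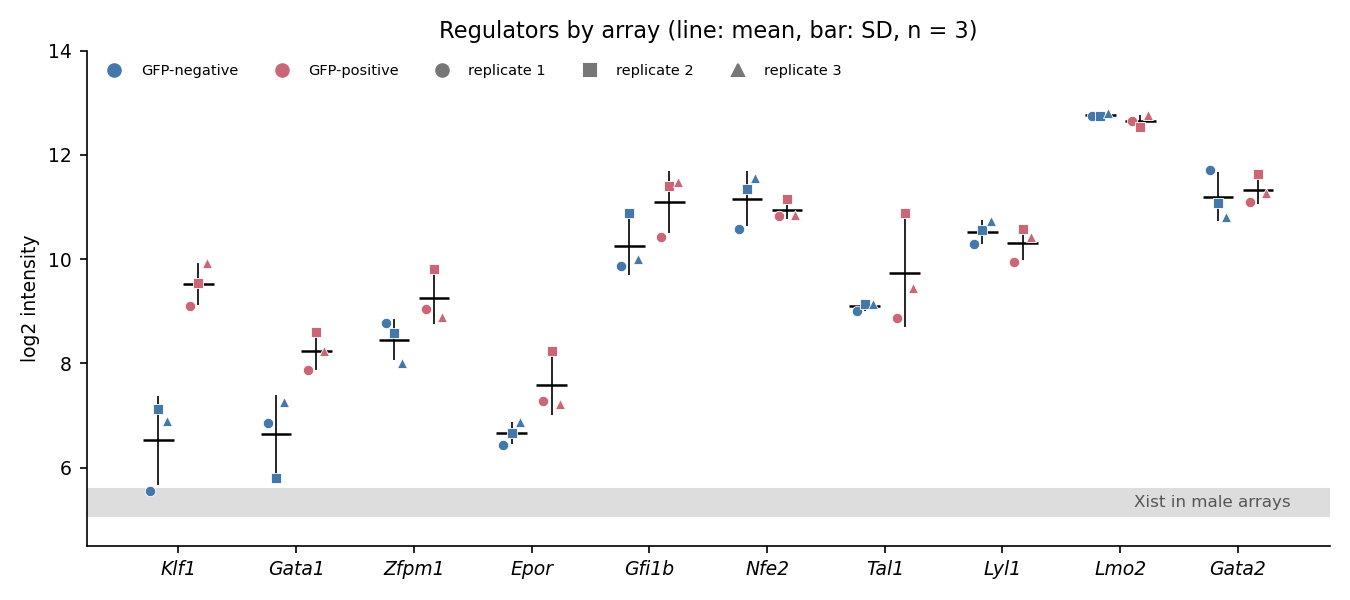
Log2 intensity of the 10 regulators on each array, with GFP-negative arrays in blue and GFP-positive arrays in red, the marker shape giving the replicate number, the line the mean and the bar the SD of 3 arrays. The grey band is the range of Xist in male arrays, a guide to background. The red and blue points of Klf1, Gata1, Zfpm1 and Epor do not overlap, while those of the other 6 genes do. Heights of different genes are not comparable, because probe sets differ in their response.

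The sequences before the start sites are shown for these 4 genes because they are the ones whose groups did not overlap. Each line is the stretch of 250 bases ending just before the annotated start, 5′ to 3′ on the gene's strand, from RefSeq (GRCm38.p6). Capitals mark 3 motifs searched on both strands. These are the GATA motif (the letters GATA preceded by A or T and followed by A or G), a motif of the kind bound by KLF factors (CCNCNCCC) and an E-box of the kind bound by TAL1 (CANNTG with GA or GC in its centre). Overlapping matches form 1 run of capitals.
Klf1 (chr8:84901732-84901981, plus strand): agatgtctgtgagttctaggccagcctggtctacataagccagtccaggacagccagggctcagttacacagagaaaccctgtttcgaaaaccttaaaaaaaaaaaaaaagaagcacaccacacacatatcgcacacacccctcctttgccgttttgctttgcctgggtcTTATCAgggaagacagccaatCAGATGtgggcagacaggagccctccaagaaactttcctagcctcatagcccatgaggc
Gata1 (chrX:7967911-7968160, minus strand): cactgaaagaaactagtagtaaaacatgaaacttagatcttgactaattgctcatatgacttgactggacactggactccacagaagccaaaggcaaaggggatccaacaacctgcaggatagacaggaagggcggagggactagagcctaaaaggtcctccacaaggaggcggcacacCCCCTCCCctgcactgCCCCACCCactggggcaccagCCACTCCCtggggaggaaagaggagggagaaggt
Zfpm1 (chr8:122281891-122282140, plus strand): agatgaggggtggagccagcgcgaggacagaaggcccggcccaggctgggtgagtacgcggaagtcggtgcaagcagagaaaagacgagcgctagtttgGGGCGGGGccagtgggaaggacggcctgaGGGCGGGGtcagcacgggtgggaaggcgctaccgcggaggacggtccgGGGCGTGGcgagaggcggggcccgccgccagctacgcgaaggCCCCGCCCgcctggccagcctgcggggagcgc
Epor (chr9:21963577-21963826, minus strand): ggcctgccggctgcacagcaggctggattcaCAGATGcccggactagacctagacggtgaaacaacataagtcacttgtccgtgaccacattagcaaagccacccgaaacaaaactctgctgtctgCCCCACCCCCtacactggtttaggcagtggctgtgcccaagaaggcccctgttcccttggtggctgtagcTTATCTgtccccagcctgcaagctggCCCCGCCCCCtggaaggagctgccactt

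Klf1 held a GATA motif at positions -80 to -75 from its start and an E-box at -59 to -54, and no match to the KLF motif. Epor held a GATA motif at -54 to -49, an E-box at -219 to -214 and 4 KLF matches that overlap in pairs. Gata1 held 3 KLF matches between -71 and -27, and Zfpm1 held 4 between -151 and -25, with no GATA or E-box match in either window. Windows of 8 of the 10 genes were searched, with 2 start sites each for Gata2 and Tal1; Lmo2 and Nfe2 were not searched here. A GATA motif was present in 4 of the 10 windows searched (1 each of Klf1, Epor, Gfi1b and Tal1), against 26.5% of 32851 start-site windows of the same length. A KLF match was present in 8 of the 10 windows, from 7 of the 8 genes (45.9% of all windows), and an E-box in 2 of the 10 windows (25.5%). A match of letters is a description of the sequence and not a bound site.

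Klf1, which opens and activates the globin and red cell membrane genes, had log2 intensities of 5.55, 7.13 and 6.90 in the GFP-negative arrays of replicates 1, 2 and 3, and of 9.11, 9.55 and 9.92 in the GFP-positive arrays, in the same order here and below. All 3 GFP-positive arrays stood well above the GFP-negative ones, with a gap of 1.98 between the closest arrays of the groups. The log2 fold change of Klf1 was 3.00 ± 0.46 (SE, limma's adjusted p = 0.254; 95% interval 1.86 to 4.14 before adjustment). This was the 47th smallest p of all genes tested. In GFP-negative replicate 1 Klf1 lay within the background guide of 5.06 to 5.59, where the summarisation compresses differences.

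Gata1, the GATA factor of committed red cell and megakaryocyte precursors, was at 6.85, 5.80 and 7.26 (log2 intensity) in the GFP-negative arrays and at 7.87, 8.60 and 8.24 in the GFP-positive arrays. The groups were separated by 0.61, and the GFP-negative arrays spread more widely (SD 0.75 against 0.36). Gata1 thus differed by 1.60 ± 0.42 (log2 fold change ± SE, limma adjusted p = 0.52; 95% interval 0.58 to 2.62 before adjustment). Without GFP-negative replicate 2, the lowest array, it was 1.18. As Gata1 lies on the X chromosome and replicate 1 was female in both groups, the comparison within a replicate number keeps the sex equal, and it gave 1.02, 2.80 and 0.98 for numbers 1, 2 and 3.

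Zfpm1 encodes FOG1, a zinc finger cofactor that GATA1 needs for most of its red cell and megakaryocyte functions. Its log2 intensity was 8.77, 8.59 and 8.01 in GFP-negative arrays and 9.04, 9.81 and 8.90 in GFP-positive arrays. The groups just failed to overlap, with a gap of 0.13. Zfpm1 differed by 0.79 ± 0.32 (log2 fold change ± SE, limma adjusted p = 0.745) and the unadjusted p was 0.0499. Its second, dimmer probe set lay at 8.25, 8.24 and 8.03 against 8.85, 8.58 and 8.20, which overlap. For that probe set the difference was 0.37 ± 0.21 (log2 fold change ± SE, limma adjusted p = 0.927 over all probe sets). Without GFP-positive replicate 2 the gene's value was 0.51.

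Epor, the surface receptor through which erythropoietin signals survival and growth, was dim in all arrays. It lay at 6.44, 6.66 and 6.88 (log2 intensity) in GFP-negative and at 7.27, 8.24 and 7.22 in GFP-positive arrays. GFP-positive replicate 2 stood about 1 log2 unit above the other two GFP-positive arrays, which lay close to the highest GFP-negative one. Epor differed by 0.92 ± 0.32 (log2 fold change ± SE, limma adjusted p = 0.666), and it was 0.59 without GFP-positive replicate 2. By the two-sided exact permutation test over the 6 arrays, Klf1, Gata1, Zfpm1 and Epor each gave p = 0.1, the smallest that 3 arrays against 3 allow.

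Gfi1b, a repressor needed for red cell and megakaryocyte maturation, was at 9.86, 10.89 and 9.998 (log2 intensity) in GFP-negative and at 10.42, 11.40 and 11.48 in GFP-positive arrays. GFP-negative replicate 2 lay above GFP-positive replicate 1, so the groups overlapped. Within each replicate number the GFP-positive array was the higher, by 0.55, 0.51 and 1.48. Gfi1b differed by 0.85 ± 0.40 (log2 fold change ± SE, limma adjusted p = 0.814; 95% interval -0.14 to 1.84). In all, 5 of the 10 genes were higher in the GFP-positive array in all 3 replicate numbers (Klf1, Gata1, Zfpm1, Epor and Gfi1b), against 13.8% of all genes.

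Nfe2, a leucine zipper factor of platelet release that also takes part in globin gene activation, was at 10.57, 11.35 and 11.57 (log2 intensity) in GFP-negative and at 10.83, 11.16 and 10.85 in GFP-positive arrays. The GFP-positive arrays lay inside the range of the GFP-negative ones. Nfe2 differed by -0.21 ± 0.29 (log2 fold change ± SE, limma adjusted p = 0.973), with an interval of -0.93 to 0.50 that leaves room for a moderate difference either way.

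Tal1, a helix-loop-helix factor required for blood cell formation and later for red cells and megakaryocytes, was at 9.0, 9.15 and 9.15 (log2 intensity) in GFP-negative arrays. In GFP-positive replicates 1, 2 and 3 it was at 8.86, 10.88 and 9.44. GFP-positive replicate 2 alone stood far above the rest, and replicate 1 was the lowest of all 6 arrays. Tal1 differed by 0.63 ± 0.51 (log2 fold change ± SE, limma adjusted p = 0.959), and by 0.06 without GFP-positive replicate 2, so the mean difference rests on that array.

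Lyl1, the close relative of Tal1, lay at 10.28, 10.56 and 10.74 (log2 intensity) in GFP-negative and at 9.94, 10.57 and 10.42 in GFP-positive arrays, and the groups overlapped. Lyl1 differed by -0.21 ± 0.23 (log2 fold change ± SE, limma adjusted p = 0.964; 95% interval -0.77 to 0.35). Lmo2, which joins GATA factors to TAL1 or LYL1 in the complex, was bright and varied least of the 10 over the 6 arrays (SD 0.097). It lay at 12.74, 12.74 and 12.81 against 12.66, 12.54 and 12.77. Lmo2 differed by -0.11 ± 0.14 (log2 fold change ± SE, limma adjusted p = 0.971), with an interval of -0.46 to 0.23 that stays within 1 log2 unit on either side of 0.

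Gata2, the GATA factor of stem and early progenitor cells and of mast cells, was at 11.71, 11.08 and 10.81 (log2 intensity) in GFP-negative and at 11.09, 11.64 and 11.26 in GFP-positive arrays. The highest and the lowest array were both GFP-negative. Gata2 differed by 0.13 ± 0.29 (log2 fold change ± SE, limma adjusted p = 0.982; 95% interval -0.57 to 0.83). Its second probe set, at 10.67, 10.12 and 9.91 against 10.15, 10.60 and 10.33, gave 0.13 ± 0.25. The direction turned to -0.065 without GFP-negative replicate 3 and to -0.022 without GFP-positive replicate 2.

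**Figure D2:**
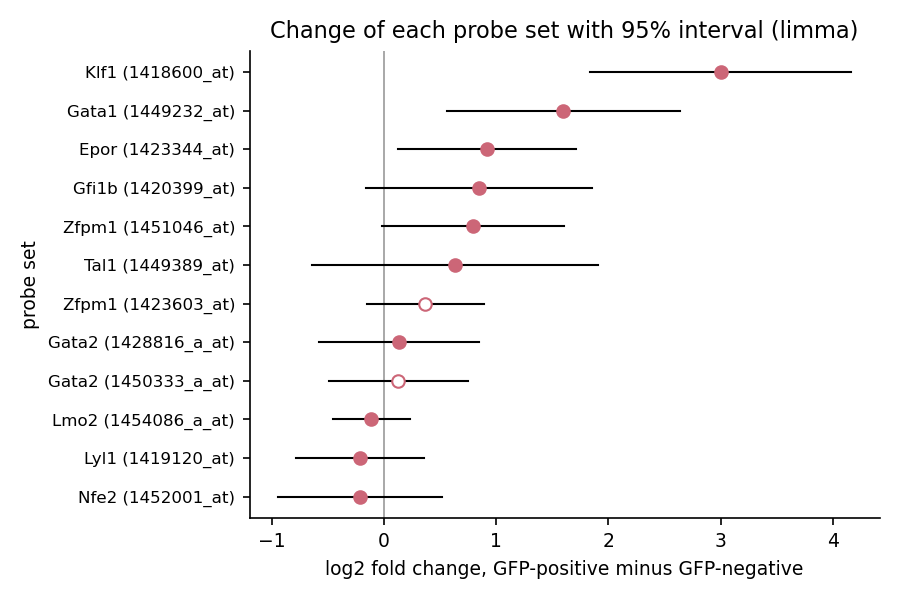
Log2 fold change, GFP-positive minus GFP-negative, of all 12 probe sets with 95% intervals from limma fitted over all probe sets, before adjustment for multiple tests, where an unadjusted p under 0.05 with GFP-positive higher was found for 2.87% of all probe sets. Filled points stand for the gene and open points are the second probe sets of Zfpm1 and Gata2. The intervals of Klf1, Gata1 and Epor lie above 0, and those of the other 9 probe sets reach across it.

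GFP-positive replicate 2 stood apart for these genes: it was the highest GFP-positive array in 7 of the 10, and replicate 3 in the other 3. The median of the 10 genes above the GFP-negative mean was 0.03, 1.25 and 0.40 (log2) in GFP-positive replicates 1, 2 and 3. In replicate 1, 5 of the 10 lay above the GFP-negative mean. Without GFP-positive replicate 2 the median fold change of the 10 was 0.29 in place of 0.71. With dim genes filtered at the 60th percentile, which removes Gata1 and Epor, it was 0.38. Within the 4 male arrays it was 0.98, where Klf1 was at 2.72 and Gata1 at 1.89 (log2 fold change).

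**Figure D3:**
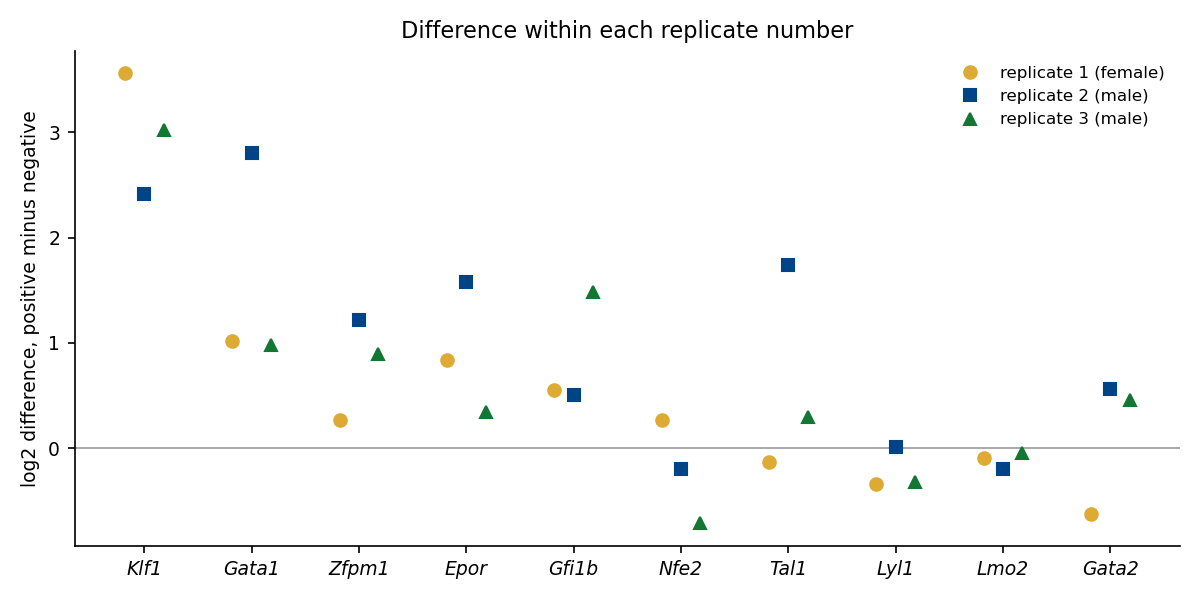
Log2 difference between the GFP-positive and the GFP-negative array of the same replicate number for each gene. Klf1 lies at 3.56, 2.42 and 3.02 for numbers 1, 2 and 3, whereas Tal1 lies at -0.13, 1.74 and 0.30 and Gata2 at -0.62, 0.56 and 0.45.

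To ask whether related regulators changed by unequal amounts, the difference of their log2 values within an array was compared between the groups for 3 pairs. Only the change is read, as 2 probe sets cannot be compared in level. Gata1 minus Gata2 was at -4.86, -5.28 and -3.55 in GFP-negative arrays and at -3.22, -3.03 and -3.02 in GFP-positive arrays. The groups did not overlap, the GFP-positive arrays lay close together (SD 0.11 against 0.90), and the change was 1.47 higher for Gata1. The two-sided exact permutation p was 0.1 for this pair (0.1 after adjustment over the 3 pairs). With 3 arrays against 3 this is the smallest possible p, reached whenever the groups do not overlap. The test therefore cannot decide, for any of the 3 pairs, whether the genes changed by unequal amounts. Each change is only the difference of the fold changes of the 2 genes. How often other pairs of genes fail to overlap was not tested.

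Tal1 minus Lyl1 was at -1.29, -1.42 and -1.59 in GFP-negative arrays and at -1.08, 0.31 and -0.98 in GFP-positive arrays. These groups did not overlap either, and the change was 0.85 higher for Tal1 (two-sided exact permutation p = 0.1, adjusted 0.1), with GFP-positive replicate 2 far above the others. Without that array the change was 0.40. Klf1 was set against Fli1, an ETS factor that favours megakaryocytes where KLF1 favours red cells. Klf1 minus Fli1 lay at -4.89, -3.10 and -3.60 against -1.11, -0.96 and -0.68, a change of 2.94 (two-sided exact permutation p = 0.1, adjusted 0.1). Fli1 itself averaged 10.39 ± 0.14 (log2 intensity, SD, n = 3) in GFP-negative arrays and 10.44 ± 0.20 in GFP-positive arrays.

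Of 29 measured partners of the complex, cofactors and opposing factors, 11 had a positive and 18 a negative fold change, with a median of -0.17 (-0.20 to -0.056 over the alternatives). By limma 0 passed. At an unadjusted p under 0.05, 0 were higher and 2 lower, where 3.33% of all genes were higher and 3.38% lower, so these counts say nothing particular of the partners. The 2 were Bach1, a heme-sensitive repressor that competes with NFE2 at shared sites, and Spi1, which encodes PU.1, the myeloid factor that opposes GATA1. Bach1 lay at 10.16, 10.08 and 9.87 (log2 intensity) in GFP-negative and at 9.15, 8.62 and 9.06 in GFP-positive arrays. All GFP-positive arrays were below all GFP-negative ones, with a log2 fold change of -1.09 ± 0.20 (SE, limma adjusted p = 0.338). Spi1 lay at 9.66, 9.88 and 9.75 against 9.02, 9.30 and 9.46, also without overlap (log2 fold change -0.50 ± 0.17, SE, limma adjusted p = 0.665). Ldb1, the adaptor that LMO2 binds, was at -0.57 ± 0.32 and the corepressor Cbfa2t3 at -0.36 ± 0.21 (log2 fold change ± SE), and their groups overlapped.

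The signalling chain below the erythropoietin receptor held no gene that passed by limma. The list of 22 measured genes includes Epor itself, already counted among the regulators above. Of the 22, 9 had a positive and 13 a negative fold change (median -0.10, and -0.23 to -0.047 over the alternatives). At p under 0.05 unadjusted 1 was higher and 0 lower, also near the share of all genes. The 1 was Epor, so no gene below the receptor was higher at that level. Jak2, the kinase bound to the receptor, was at -0.30 ± 0.28 (log2 fold change ± SE), and its substrates Stat5a and Stat5b at -0.10 ± 0.24 and -0.05 ± 0.19. These 3 genes are named for their role. By smallest p followed Pim1, a kinase induced by STAT5, which lay at 12.10, 11.79 and 12.29 (log2 intensity) in GFP-negative and 11.59, 10.68 and 11.69 in GFP-positive arrays. Pim1 and Ptpn6, the phosphatase that switches the receptor off, lay lower in all GFP-positive arrays, with log2 fold changes of -0.74 ± 0.32 and -0.38 ± 0.17 (SE, limma adjusted p = 0.765 and 0.77). Tfrc, the transferrin receptor that brings in iron, was at 0.91 ± 0.45 with overlapping groups.

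Red cell target genes were split. Of 26 measured genes 20 had a positive fold change, with a median of 0.29, where 51.3% of all genes had a positive one. By limma 0 passed, and 7 were higher and 0 lower at p under 0.05 unadjusted, against 3.33% and 3.38% of all genes. Ermap, a red cell membrane protein, lay at 5.67, 5.59 and 5.24 (log2 intensity) in GFP-negative and at 10.12, 10.43 and 9.42 in GFP-positive arrays. Its GFP-negative values lay within or just above the background guide of 5.06 to 5.59, where the summarisation compresses differences. The carbonic anhydrase Car1 lay at 8.72, 7.86 and 8.77 against 10.83, 11.80 and 11.58. The water channel Aqp1 lay at 6.99, 7.66 and 7.21 against 9.38, 9.36 and 9.46. In all 3 genes the groups were far apart, while Rhd, a Rhesus family membrane protein, was at 1.48 ± 0.38 (log2 fold change ± SE). Limma adjusted p-values of these 4 genes were 0.0956 for Ermap, 0.177 for Car1, 0.153 for Aqp1 and 0.52 for Rhd. Some red cell genes lay near the background guide: Hba-a1, an alpha globin gene, lay between 4.45 and 5.16 and Alas2, the red cell enzyme that starts heme synthesis, between 3.94 and 5.40 over all 6 arrays. Both, and Trim10, were at or below the highest value of Xist in males, 5.59, on every array, but reached above the lower range of the Y-linked genes in females, 3.42 to 4.69. Others lay well above both ranges, such as Fech, the last enzyme of heme synthesis, at 8.33 to 9.67, and the mitochondrial iron carrier Slc25a37 at 6.70 to 8.47. Hba-a1, Alas2, Fech and Slc25a37 were chosen after their values were seen. The list median was 0.14 without GFP-negative replicate 2 and 0.68 with the 60th percentile filter, which left 8 of the 26 genes.

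Most platelet and megakaryocyte genes had positive fold changes. Of 27 measured genes 22 had a positive fold change (median 0.76), against 51.3% of all genes. By limma 0 passed, while 11 lay higher and 1 lower at p under 0.05 without adjustment, against 3.33% and 3.38% of all genes. Gp1bb encodes a chain of the platelet surface complex that binds von Willebrand factor and lay at 6.94, 7.60 and 7.28 (log2 intensity) in GFP-negative and at 9.21, 9.21 and 9.68 in GFP-positive arrays, with no overlap. Log2 fold changes were 2.61 ± 0.45 (SE) for the caveolar protein Cavin2, 1.59 ± 0.28 for the platelet granule protein Mmrn1 and 2.75 ± 0.61 for Vwf itself. Limma adjusted p-values of the 4 genes lay between 0.174 for Gp1bb and 0.445 for Vwf. Groups did not overlap, with GFP-positive above, in 13 of the 27 genes, and with GFP-positive below in 1, against 5.89% and 5.51% of all genes. The lists of target genes were drawn up with earlier results of these data known and are not independent evidence of a direction.

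**Figure D4:**
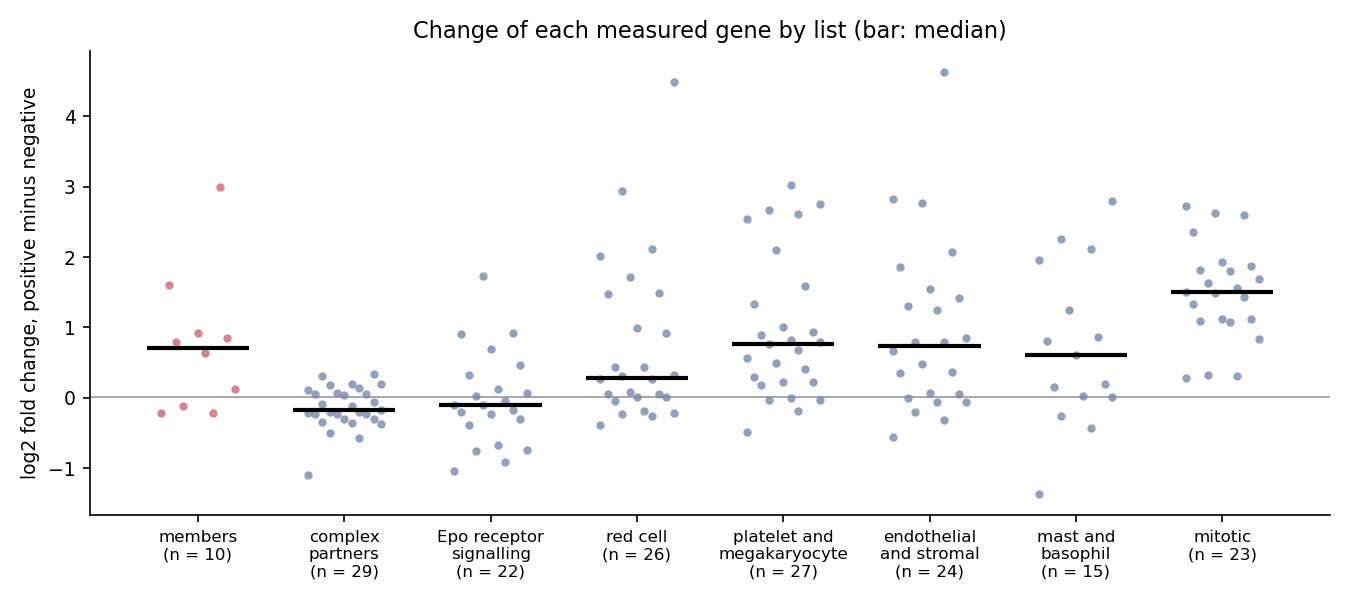
Log2 fold change of each measured gene, GFP-positive minus GFP-negative, in 8 lists, with the median as a black bar and the median of all genes as a grey line. Complex partners (median -0.17) and Epo receptor signalling (median -0.10, Epor included) sit at or below the line. The regulators (0.71), red cell (0.29), platelet and megakaryocyte (0.76) and mitotic genes (1.50) sit above it. So do the endothelial and stromal (0.73) and the mast cell and basophil markers (0.60). The macrophage list (1.63) and the other marker lists are not drawn.

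Some of these regulators are also expressed by other cells that a sample could hold, so markers of those cells were measured beside them. In such pooled RNA, fewer cells of a type and less RNA per cell cannot be told apart. Tal1, Lyl1, Lmo2 and Gata2 are known in endothelium. Of 24 endothelial and stromal markers 18 had a positive fold change (median 0.73), against 51.3% of all genes. At p under 0.05 unadjusted 4 were higher and 0 lower, against 3.33% and 3.38% of all genes. Of the 24 markers, 20 were highest in GFP-positive replicate 1. Their summed linear intensity was 26966 in that array against 6632 and 8379 in the other two GFP-positive arrays and 6960 to 8797 in GFP-negative arrays. Tal1, Lyl1 and Gata2 each had their lowest GFP-positive value in replicate 1, and Lmo2 in replicate 2. Without replicate 1 of the GFP-positive arrays the median of the markers was 0.02, and it was -0.02 within the male arrays and 0.39 with array weights. Without that array Klf1 was at 3.21, Gata1 at 1.78 and Tal1 at 1.07 (log2 fold change). Among the markers, the angiopoietin receptor Tek was at 2.82 ± 0.45 and the stromal chemokine Cxcl12 at 4.63 ± 1.04 (log2 fold change ± SE). Tie1, a receptor related to Tek, was at 0.80 ± 0.21 and the junction protein Esam at 1.30 ± 0.47. In GFP-positive replicates 1, 2 and 3 Tek lay at 8.71, 7.67 and 7.04 (log2 intensity), against 4.74 to 5.40 in GFP-negative arrays. Cxcl12 lay at 12.52, 9.27 and 8.33 against 5.34 to 5.52. Groups did not overlap, with GFP-positive above, in 3 of the 24 markers (Tek, Cxcl12 and Tie1), against 5.89% of all genes. GFP-positive lay below without overlap in 0, against 5.51%.

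Gata1 and Gata2 are also mast cell factors. Of all genes, 51.3% had a positive fold change, and at p under 0.05 unadjusted 3.33% were higher and 3.38% lower. Of 15 mast cell and basophil markers 12 had a positive fold change (median 0.60), with 4 higher and 1 lower at p under 0.05 unadjusted. The median was 0.20 when probe sets of a gene were averaged or the most variable one was taken. It was 0.16 with the 60th percentile filter, which left only 3 of the 15 markers. The summed intensity of the 15 was 3585, 5833 and 5187 in GFP-positive replicates 1, 2 and 3 against 3200 to 3742 in GFP-negative arrays. The mast cell proteases Cma1 and Tpsb2 were at 1.96 ± 0.21 and 0.81 ± 0.26, the histamine-forming enzyme Hdc at 0.87 ± 0.30, and Ms4a2, the beta chain of the IgE receptor, at -1.37 ± 0.44 (log2 fold change ± SE). The proteases Mcpt1, Mcpt2 and Tpsab1 lay at or below the highest value of Xist in males on every array. The part of mast cells in the values of Gata1 and Gata2 was not tested. Eosinophils also use GATA1, and of 7 measured eosinophil markers 4 had a positive fold change and 0 had an unadjusted p under 0.05. The median was 0.13, and it was below 0 without GFP-negative replicate 3 or GFP-positive replicate 2 or 3. Either filter left only 1 of the 7, Siglecf, at -0.064. The summed intensity of the 7 was 402 to 587 in GFP-positive and 404 to 559 in GFP-negative arrays. The eosinophil granule genes Epx and Prg3 and the receptor Ccr3 were at or below the highest value of Xist in males on every array, and Il5ra was at 0.44 ± 0.44.

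For the lists that follow, 51.3% of all genes had a positive fold change, and at p under 0.05 unadjusted 3.33% were higher and 3.38% lower. Macrophages of the marrow surround and clear red cell precursors. Of 15 macrophage markers 12 had a positive fold change (median 1.63), with 7 higher and 1 lower at p under 0.05 unadjusted. Adgre1, 1 of the 7, lay at or below the highest value of Xist in males on every array. The median was 0.90 without GFP-positive replicate 1, 1.00 without GFP-positive replicate 2 and 0.97 without GFP-negative replicate 3. Their summed intensity was 6089, 7688 and 3727 in GFP-positive replicates 1, 2 and 3 against 2468 to 4017 in GFP-negative arrays. Among them, log2 fold changes were 3.11 ± 0.38 (SE) for Cd5l, 2.52 ± 0.40 for Hmox1, 2.06 ± 0.57 for Vcam1 and -2.20 ± 0.40 for Csf1r. Of 13 mature lymphocyte markers 9 had a positive fold change (median 0.24), with 3 higher and 0 lower at p under 0.05 unadjusted. The summed intensity of the 13 was 5385 to 6363 in GFP-positive arrays against 4359 to 4611 in GFP-negative arrays. The median was 0.40 without GFP-positive replicate 3, and -0.11 with the 60th percentile filter, which left only 3 of the 13. The lymphocyte genes of smallest p were Gzma at 3.17 ± 0.33, Ebf1 at 2.24 ± 0.27, Cd79a at 2.72 ± 0.60 and Jchain at 4.08 ± 1.76. Jchain lay at 9.97, 9.95 and 3.50 (log2 intensity) in GFP-positive replicates 1, 2 and 3 against 3.58 to 3.86 in GFP-negative arrays. Its groups thus overlapped, with GFP-positive replicate 3 the lowest array. Of 23 mitotic genes 23 had a positive fold change (median 1.50), 15 of them at p under 0.05 unadjusted. Their summed intensity was 33390 to 47951 in GFP-positive arrays against 25629, 10102 and 9690 in GFP-negative replicates 1, 2 and 3. Aurka, a spindle kinase, was at 2.63 ± 0.41 (log2 fold change ± SE), Cenpa at 1.11 ± 0.23, Ccnb2 at 1.12 ± 0.27 and Mad2l1 at 0.84 ± 0.21. By limma 0 genes of these marker lists passed, and their part in the values of the regulators was not tested.

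Only Klf1 and Gata1 varied by an SD above 1 log2 unit over the 6 arrays, and for these the genes of most similar pattern were sought. Likeness was measured as the root mean square difference between log2 values, each gene centred on its mean over the 6 arrays. The nearest genes to Klf1 were the carboxylesterase Ces2g at 0.28, the retinaldehyde dehydrogenase Aldh1a1 at 0.42 and Hmox1, which breaks down heme, at 0.48, where the median of all genes was 1.62. Nearest to Gata1 were Acyp2, an acylphosphatase, at 0.27, the centromere protein gene Cenpl at 0.30 and the zinc finger gene Zfp383 at 0.32, against a median of 0.98. Among the regulators, Gata1 came closest to Klf1, at place 122 of all genes (1.06), and Epor came closest to Gata1, at place 177 (0.57).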

How the data were processed

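The authors deposited 1 linear intensity for each probe set on each array, made with RMA per the submitters' processing notes, whose settings no source used here gives. RMA compresses differences near background. The labels' protocols state that 5 ng of total RNA was amplified. No depth applies to arrays, and the number of arrays limits the precision.

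Values were put on the log2 scale as deposited, without a pseudocount or renewed normalisation. Gene symbols came from the annotation of the platform: 34958 probe sets had 1 symbol, 932 several and 9211 none here, and the last 2 kinds were left out of the gene test. All 10 symbols matched RefSeq (GRCm38.p6, for names and start-site sequences). The groups were compared with limma 3.58.1 (R 4.3.3) over all 18194 genes with no filter on dim genes, with Benjamini-Hochberg adjustment and a threshold of 0.05; the probe sets were fitted over all 45101. Single values were compared by exact permutation tests. The code was tested on simulated data. Figures used matplotlib 3.10.9 (Python 3.11.15).

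The 10 genes, the 12 further lists and the tests were chosen with earlier results of these data known. Genes named were the 10, Hes1, the sex genes, the 4 of smallest p in each list and the 3 nearest in pattern to regulators with an SD above 1; others are marked. Alternatives covered probe set choice, filters, variance priors, array weights, normalisation, a pseudocount, the replicate block, sex and the omission of each array; a test of sex differences was added after the values were seen.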

Additional observations from a re-analysis of the deposited data

Results flagged for a closer look

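For 3 of the 10 regulators the female arrays and the male arrays lay in opposite directions. Gata2 was at -0.62 (log2 difference, GFP-positive minus GFP-negative) between the female arrays and at 0.51 over the 4 male arrays, in which both GFP-positive arrays were above both GFP-negative ones. Tal1 was at -0.13 in females and 1.02 in males, and Nfe2 at 0.26 in females and -0.45 in males. Such opposite directions were found in 18.3% of all genes. A limma fit over all genes with a term for the difference between the sexes, added after the values were seen, gave adjusted p = 0.70 for Gata2 (female minus male -1.13 ± 0.42, SE), 0.87 for Tal1 (-1.15 ± 0.94) and 0.81 for Nfe2 (0.72 ± 0.38). In that fit 0 of 18194 genes had an adjusted p under 0.05 and 1317 an unadjusted p under 0.05. For Gata2 the unadjusted p was 0.0553. The females were 1 array in each group, which the fit assumes to vary like the males, and sex and replicate number 1 cannot be told apart.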

How the results depend on the processing

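Over 19 refits, 0 of the 10 regulators had an adjusted p under 0.05 by limma, nor did any at thresholds of 0.1 or 0.2 in the fit reported. Filtering at the 60th percentile removed Gata1 and Epor. Klf1 ranged from 2.51 to 3.30 (log2 fold change; adjusted p from 0.176 to 0.516), and Gata1 from 1.18 to 1.91 (adjusted p from 0.413 to 0.734). All regulators but Gata2 kept their sign; Gata2 ranged from -0.065 to 0.39 when 1 array was left out, and was below 0 without GFP-negative replicate 3 (-0.065) and without GFP-positive replicate 2 (-0.022). The count of regulators higher at an unadjusted p under 0.05, 4, became 3 with the most variable probe set, the 40th percentile filter or an intensity trend. A robust prior, median centring and the pseudocount also gave 3. The count became 2 with the 60th percentile filter, where 2 of the 4 were not tested. It was 2 in male arrays alone, where fewer arrays entered, and 3 to 4 when 1 array was left out. Of all genes, 0 passed at 0.05, 1 at 0.1 and 25 at 0.2; 1 passed with the 40th and 2 with the 60th percentile filter, where fewer genes were tested, and 0 to 5 when 1 array was left out, the 5 without GFP-positive replicate 3. The changes within the 3 pairs of regulators kept their direction in all alternatives run; Tal1 minus Lyl1 ranged from 0.40 to 1.17. With the replicate number as a block, 0 genes passed and 5 regulators were higher at an unadjusted p under 0.05. Same-numbered arrays deviated together weakly (correlations 0.12, 0.05 and 0.09 for numbers 1, 2 and 3), each array correlating best with its own number, a hint from the data and not the design.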

Other observations

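Bach1, lower in all GFP-positive arrays, encodes a repressor known to act on Hmox1, and Hmox1 lay at 6.50, 7.30 and 7.48 (log2 intensity) in GFP-negative and at 9.69, 8.97 and 10.18 in GFP-positive arrays. A link between the changes of Bach1 and Hmox1 was not tested. Hmox1 is also among the macrophage markers above, most of which had positive fold changes. The small Maf genes, whose products pair with both BACH1 and NFE2, had overlapping groups: Mafk was at -0.11 ± 0.29 and Mafg at -0.30 ± 0.25 (log2 fold change ± SE). Socs2, a feedback inhibitor induced by STAT5, was at 7.79, 6.29 and 5.54 (log2 intensity) in GFP-negative arrays. It was at 6.4 in GFP-positive replicate 1 but at 9.37 and 9.02 in replicates 2 and 3. Cish, another STAT5-induced inhibitor, was at -0.11 ± 0.38 (log2 fold change ± SE) with overlapping groups. Rhag, the ammonium channel of the Rhesus complex, was at 3.81, 2.62 and 2.25 in GFP-negative and 4.04, 6.13 and 4.59 in GFP-positive arrays, and GFP-positive replicate 2 was the only array above 5.59, the highest value of Xist in males. Ank1, the ankyrin of the red cell skeleton, was likewise highest there, at 9.12 against 7.13 and 6.90 in the other two GFP-positive arrays. Mafk, Mafg, Socs2, Cish, Rhag and Ank1 were chosen after their values were seen.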
